A study of Homo sapiens with 4 samples.

Results

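The neurotrophin receptors and ligands examined here are 7 genes of the 60612 in the count table. They comprise the receptor genes NGFR, NTRK2 and NTRK3, the sorting receptor genes SORT1 and SORCS1, and the ligand genes BDNF and NTF3. The genes were taken by symbol from a list that was selected on values of this same comparison, so their differences are described below and no test is attached to them. 5 of the 7 passed the filter on low counts, which kept 17537 genes, while NTRK2 and NTF3 did not.

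The study asked what NeuroD1, a neurogenic basic helix-loop-helix transcription factor, does in neuroblastoma with amplified MYCN. RNA sequencing (RNA-seq) was performed on IMR-32, an established human cell line from an abdominal neuroblastoma, stably carrying a short hairpin RNA switched on by doxycycline. The shControl group (2 libraries) carried the control hairpin and the shNeuroD1 group (2 libraries) a hairpin against NEUROD1, and both groups received doxycycline at 1 µg/mL for 48 h. The control cells are also called wild type or parental in the labels, and the study's own table of this comparison names the same NeuroD1 hairpin for both knockdown libraries, so an effect of that 1 hairpin on other transcripts cannot be told apart from the knockdown. Whether the libraries of a group came from separate cultures is not stated, so p-values measure only the spread between these libraries, which may be technical.

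Neurotrophins are secreted as precursors that are cut to mature growth factors, and they keep sensory and sympathetic neurons alive. The mature forms act through Trk receptor tyrosine kinases, with BDNF and neurotrophin-4 binding TrkB (NTRK2) and neurotrophin-3 binding TrkC (NTRK3). They also bind p75NTR (NGFR), a receptor of the tumour necrosis factor receptor family without a kinase. The uncut precursors bind p75NTR together with sortilin (SORT1) or its relatives, which carry a VPS10 domain. In neuroblastoma, expression of TrkB has long been associated with aggressive disease.

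The libraries held 14665210 to 16482463 counts, and 3 counts, the limit that a count of 0 allows, correspond to 0.189 to 0.204 CPM (counts scaled to library size). This limit covers counting error only. Mitochondrial transcripts made up 4.37% and 4.59% of all reads counted in shControl, against 5.39% and 5.51% in shNeuroD1. The target of the hairpin, NEUROD1, was counted 6174 and 6582 times in shControl against 969 and 886 times in shNeuroD1, or 14.6% of the control level (log2 fold change -2.77 with an SE of 0.0504 and an adjusted p of 8.59e-29 in edgeR). Its exons overlap those of the neighbouring gene CERKL on the same strand. The sympathetic neuroblastoma markers were present, with 8 of 8 genes detected and a summed level of 2125 and 2092 CPM in shControl against 1754 and 1730 CPM in shNeuroD1, although TH (10, 20, 88 and 79 counts in shControl 1 and 2 and shNeuroD1 1 and 2) and DBH (23, 24, 12 and 11 counts) were low. TH and DBH, named after their values were seen, encode enzymes of catecholamine synthesis.

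NGFR, which encodes p75NTR, was the member that differed most between the groups. NGFR (ENSG00000064300, GRCh38 chr17:49495293-49515017, plus strand) was counted 1269 and 1374 times in shControl against 69 and 61 times in shNeuroD1. Scaled by trimmed mean of M values (TMM), these counts corresponded to 86.1 and 86.5 CPM in shControl against 4.54 and 4.01 CPM in shNeuroD1. Both knockdown libraries lay far below both control libraries, and the libraries within a group were close. The mean level was 86.3 ± 0.305 CPM in shControl against 4.27 ± 0.375 CPM in shNeuroD1 (SD, n = 2 each), which is 4.95% of the control level. In edgeR the log2 fold change came to -4.33 (SE 0.0968), the 22nd lowest of the 17537 genes tested. In RNA from a whole culture, fewer cells with the transcript and less transcript per cell cannot be told apart.

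The FPKM values that the authors deposited for assembled transcripts (fragments scaled to transcript length and library size) listed 1 start and 1 end for NGFR, the start at an annotated start and the end within the annotated last exon, both in all 4 libraries. The start of NGFR had 18.7 and 19.9 FPKM in shControl against 1.14 and 0.845 FPKM in shNeuroD1. A single start and end thus carried the listed NGFR signal in each library. 2 genes of unassigned or antisense type lie on the opposite strand with exons that overlap NGFR, and the use of strand in counting was not given in the sources used here. The antisense gene AC006487.1 had 8 and 12 counts in shControl, and 0 in each shNeuroD1 library, and AC015656.1 had 4 and 5 counts in shControl, and 0 in each shNeuroD1 library, so both were small beside NGFR in shControl.

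Because p75NTR is abundant in Schwann cells, their markers and those of fibroblasts were examined beside NGFR. The 6 Schwann cell markers summed to 5.43 and 5.42 CPM in shControl against 8.74 and 10.1 CPM in shNeuroD1, with FOXD3 at 0 counts in every library and SOX10, the defining transcription factor, at 8 and 17 counts in shControl, against 15 and 12 in shNeuroD1. Their summed level was thus higher in the libraries where NGFR was low. The 6 fibroblast markers summed to 87.9 and 92.1 CPM in shControl against 89.9 and 88.6 CPM in shNeuroD1, with no separation of the groups in the sum. Of 5 fibroblast markers tested in edgeR, COL1A1 was lower and 4 (COL3A1, LUM, PDGFRB and THY1) were higher at an adjusted p under 0.05, and none of the 6 was at 0 in all libraries. Of 4 Schwann cell markers tested, 2 were higher and 2 did not pass. The part of either marker list in the NGFR difference was not tested.

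**Figure D1:**
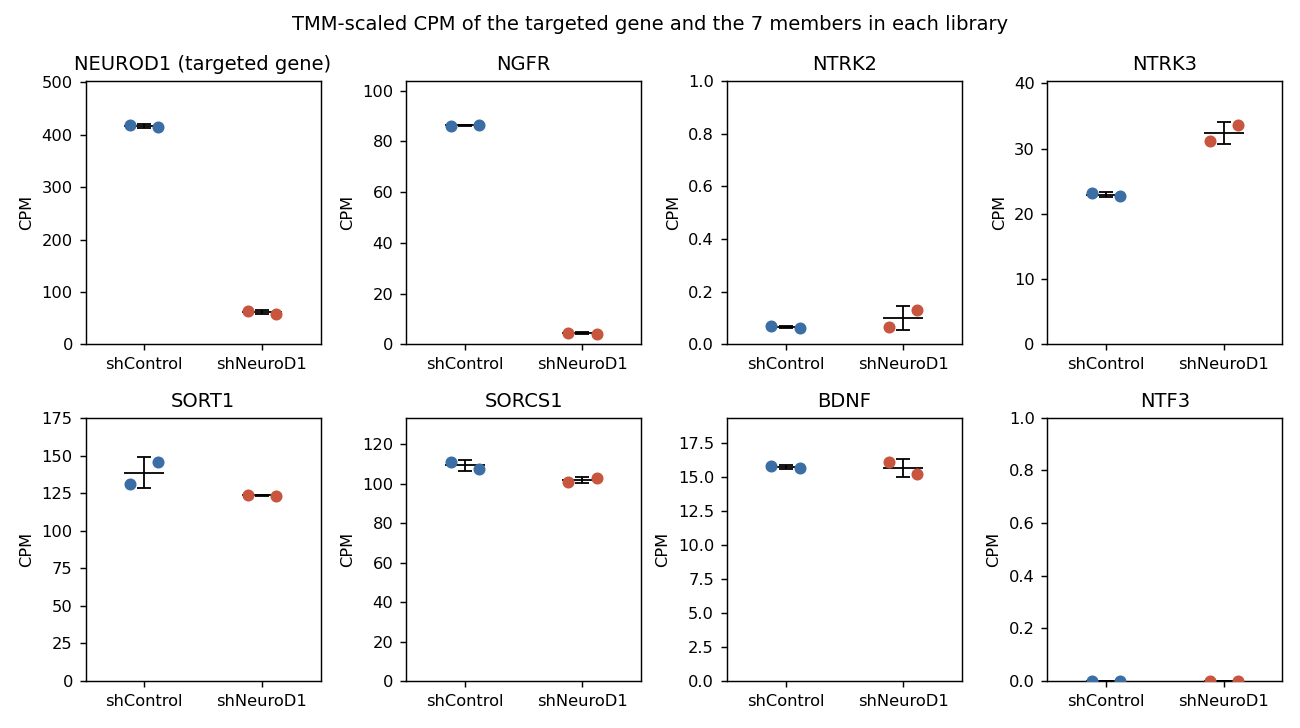
TMM-scaled CPM (vertical axis, starting at 0, with its own scale in each panel) of NEUROD1 and the 7 members in the 2 shControl libraries (blue points) and the 2 shNeuroD1 libraries (red points), where the bar and whiskers are the mean and SD of 2 libraries. NGFR stands at 86.3 CPM in shControl and 4.27 CPM in shNeuroD1, whereas BDNF stays at 15.7 and 15.6 CPM, and the NTRK2 and NTF3 panels hold at most 2 counts a library.

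By the likeness of their levels across the 4 libraries, 3 genes lay nearest to NGFR among the 10560 tested genes that averaged 10 CPM or more. They were CCKAR, the receptor of cholecystokinin, at a distance of 0.0453 in centred log2 CPM, then PHLDB2 (distance 0.162) and GFRA1 (distance 0.255), a co-receptor of the glial cell line-derived neurotrophic factor. CCKAR went from a mean of 120 CPM in shControl to 5.91 CPM in shNeuroD1, PHLDB2 from 106 to 5.88 CPM, and GFRA1 from 191 to 12 CPM. These 4 genes share the same 4 libraries, and a gene with a difference of like size lies near NGFR by construction.

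NTRK3, which encodes TrkC, was higher in the knockdown libraries. NTRK3 (ENSG00000140538, GRCh38 chr15:87859751-88256768, minus strand) was counted 342 and 360 times in shControl against 475 and 512 times in shNeuroD1. The mean was 22.9 ± 0.376 CPM in shControl against 32.4 ± 1.70 CPM in shNeuroD1 (SD, n = 2 each), or 141% of the control level, and the groups did not overlap. In edgeR the log2 fold change came to 0.50 (SE 0.0858), and with limma applied to the summed FPKM of its starts it came to 0.79 at a pseudocount of 1 and 1.26 at a pseudocount of 0.1. The gene NTRK3-AS1 on the opposite strand shares no exon with NTRK3 and had 0, 0, 1 and 1 counts.

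TrkC is made in a form with the tyrosine kinase and in shorter forms that lack it, and the 2 kinds of transcript part after a shared coding exon. The sequences around that junction, read from GENCODE 29 transcripts, show how the forms differ, with the last 30 bases of the shared exon in lower case and the first 60 bases of the following exon in capitals. In the transcript without the kinase that is shown, NTRK3-201, the capitals open the exon at chr15:87981226-87981360. Other transcripts without the kinase can skip that exon. In the transcript with the kinase that is shown, NTRK3-220, they open the exon at chr15:87940623-87940753, both on the minus strand and written 5′ to 3′.
NTRK3 without the kinase: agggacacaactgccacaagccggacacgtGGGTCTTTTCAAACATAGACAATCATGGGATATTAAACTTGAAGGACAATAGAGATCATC
NTRK3 with the kinase: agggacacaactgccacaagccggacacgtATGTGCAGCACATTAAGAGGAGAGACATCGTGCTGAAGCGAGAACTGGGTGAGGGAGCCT

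The FPKM files listed 1 transcript end for NTRK3, and it lay in the last exon of annotated transcripts that lack the kinase. Its FPKM was 1.22 and 1.36 in shControl against 2.64 and 3.20 in shNeuroD1. Both knockdown libraries were above both control libraries at this end. No end in the kinase-encoding last exon of NTRK3 was listed in any library. These files list only events with an FPKM above 0, and they do not list every end of the assembled transcripts. For SORT1, an exon downstream of its only listed end was listed as included in all 4 libraries, and for NTRK3 skipping of an exon downstream of its listed end was listed at 0.00492 FPKM in shControl 2. An end that is not listed therefore does not show that transcripts with it were absent. In NTRK3-201 the kinase-lacking tail opens with the exon at chr15:87981226-87981360. This exon was listed as included at 0.586 and 1.36 FPKM in shControl against 1.66 and 2.10 FPKM in shNeuroD1. Its skipping was listed at 0.635 FPKM in shControl 1, was not listed in shControl 2, and stood at 0.985 and 1.10 FPKM in the shNeuroD1 libraries. In each library the inclusion and skipping values together made up the FPKM of the kinase-lacking end. Skipping of this exon is therefore not read as the kinase-encoding form.

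The single listed start of NTRK3 matched an annotated start and had 0.586 and 1.36 FPKM in shControl against 1.66 and 3.20 FPKM in shNeuroD1. The spread within a group was wide, and the 2 libraries of each group differed at this start by more than at the counts. A coding exon of 24 bases was also listed in both forms, and it is shown whole, all in capitals, at chr15:88128711-88128734 on the minus strand, written 5′ to 3′.
NTRK3 small exon: AGAGCACGGATAACTTTATCTTGT
Transcripts that include this exon had 0.586 and 1.36 FPKM in shControl against 1.66 and 2.10 FPKM in shNeuroD1. Transcripts that skip it were not listed in shControl 1 and had 0.00501 FPKM in shControl 2, 0.000972 FPKM in shNeuroD1 1 and 1.10 FPKM in shNeuroD1 2. Skipping therefore rested on 1 knockdown library, and the other 3 libraries listed almost none.

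**Figure D2:**
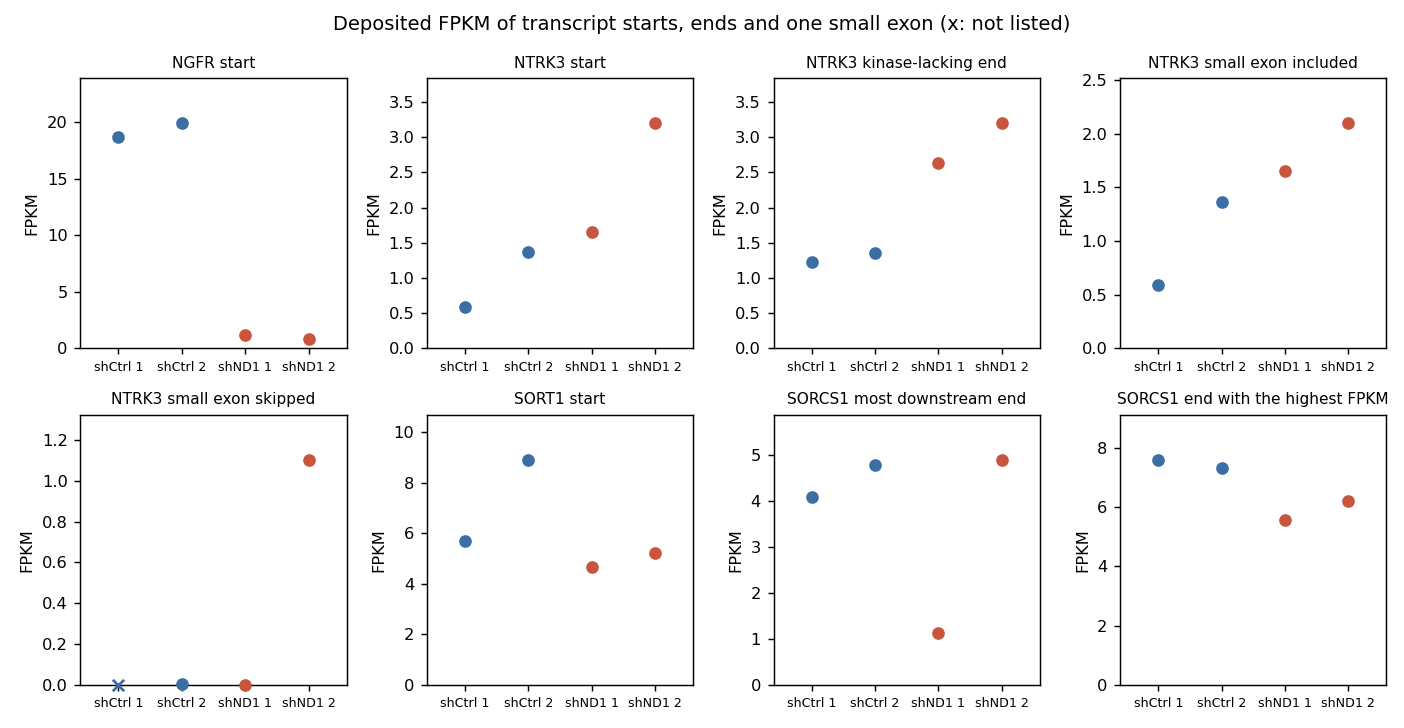
Deposited FPKM (vertical axis, starting at 0) of transcript starts, transcript ends and the 24-base NTRK3 exon in shControl 1 and 2 (shCtrl, blue) and shNeuroD1 1 and 2 (shND1, red), 1 point a library, with a cross where the event was not listed. The NGFR start goes from 18.7 and 19.9 to 1.14 and 0.845 FPKM, the kinase-lacking NTRK3 end is higher in both shNeuroD1 libraries, and the most downstream SORCS1 end is low in shNeuroD1 1 alone.

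The genes nearest to NTRK3 by the same measure were CASC15 (distance 0.0202), CD59 (distance 0.0228) and CARMIL2 (distance 0.0299). CASC15, a long noncoding RNA gene, went from 80 to 113 CPM, CD59, an inhibitor of the complement membrane attack complex, from 36.2 to 50.8 CPM, and CARMIL2 from 36.5 to 51.6 CPM. Their differences were of the size seen for NTRK3, and the measure says no more than that.

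NTRK2, which encodes TrkB, was at the limit of detection. NTRK2 (ENSG00000148053, GRCh38 chr9:84668551-85027070, plus strand) had 1 count in each shControl library and 1 and 2 counts in the shNeuroD1 libraries. These values lie under the 3 counts that a count of 0 allows, so no fold change is given and no difference was detectable at this depth. No start or end of NTRK2 was listed in the FPKM files.

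The sorting receptors differed little between the groups. SORT1 (ENSG00000134243, GRCh38 chr1:109309568-109397951, minus strand), encoding sortilin, the partner of p75NTR for uncut neurotrophins, was counted 1938 and 2320 times in shControl against 1882 and 1881 times in shNeuroD1. Its mean was 138.8 ± 10.3 CPM in shControl against 123.6 ± 0.130 CPM in shNeuroD1 (SD, n = 2 each). The control libraries spread far more than the knockdown libraries, and the log2 fold change of -0.17 (SE 0.0517) was -0.25 without shControl 1 and -0.10 without shControl 2. It was -0.06 under library size alone and, on the FPKM of its start, -0.46 and -0.52 at pseudocounts of 1 and 0.1. The SORT1 start had 5.68 and 8.89 FPKM in shControl against 4.65 and 5.21 FPKM in shNeuroD1. As in the counts, the higher value belonged to shControl 2.

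SORCS1, a VPS10 receptor best known for sorting the amyloid precursor protein and synaptic receptors, lay close in the groups. SORCS1 (ENSG00000108018, GRCh38 chr10:106573663-107164534, minus strand) was counted 1640 and 1706 times in shControl against 1538 and 1571 times in shNeuroD1. Its mean was 109.4 ± 2.71 CPM in shControl against 102.1 ± 1.46 CPM in shNeuroD1 (SD, n = 2 each). In edgeR the log2 fold change came to -0.10 (SE 0.0511), and its sign turned under scaling by library size alone, to 0.01. At that scaling the median over all tested genes moved from 0.008 to 0.12, so relative to the median SORCS1 remained below it.

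SORCS1 transcripts differ in their cytoplasmic tails, and 5 ends were listed for the gene, 4 of them in all 4 libraries. The end with the highest FPKM, at chr10:106577198-106579251, had 7.59 and 7.31 FPKM in shControl against 5.57 and 6.21 FPKM in shNeuroD1. The most downstream end, at chr10:106573671-106577555, had 4.09 and 4.78 FPKM in shControl, 1.12 FPKM in shNeuroD1 1 and 4.89 FPKM in shNeuroD1 2. Thus the 2 knockdown libraries disagreed at the most downstream end, while their gene counts were close. The coding exon of 161 bases upstream of the most downstream end is shown whole, all in capitals, at chr10:106579091-106579251 on the minus strand, written 5′ to 3′, because its inclusion was listed in every library.
SORCS1 tail exon: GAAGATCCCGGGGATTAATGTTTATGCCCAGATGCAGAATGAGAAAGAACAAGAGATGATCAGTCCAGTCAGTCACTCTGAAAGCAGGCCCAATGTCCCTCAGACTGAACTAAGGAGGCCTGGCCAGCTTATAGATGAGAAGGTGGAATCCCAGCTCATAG
Inclusion of this exon had 4.09 and 4.78 FPKM in shControl against 1.08 and 4.89 FPKM in shNeuroD1, and its skipping was listed in shNeuroD1 1 only, at 0.0407 FPKM. A SORCS1 start with no annotated counterpart had 3.50 and 4.86 FPKM in shControl and 5.25 FPKM in shNeuroD1 2, and was not listed in shNeuroD1 1. In shNeuroD1 1 the most upstream annotated start was listed in its place, at 0.0296 FPKM. A log2 fold change on the summed FPKM of its starts was -1.02 and -2.34 at pseudocounts of 1 and 0.1, and the starts summed to 0.03 FPKM in shNeuroD1 1 against 3.50 to 5.25 FPKM in the other libraries.

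The ligand BDNF did not separate the groups. BDNF (ENSG00000176697, GRCh38 chr11:27654893-27722058, minus strand) was counted 233 and 248 times in shControl against 245 and 231 times in shNeuroD1. Its mean was 15.7 ± 0.135 CPM in shControl against 15.6 ± 0.661 CPM in shNeuroD1 (SD, n = 2 each), and the range of the knockdown libraries enclosed that of the controls. In edgeR the log2 fold change came to -0.01 (SE 0.112), less than its standard error, and its sign turned under library size alone (0.11), close to the median of all tested genes at that scaling. The antisense gene BDNF-AS, whose exons overlap those of BDNF, was counted 38 and 57 times in shControl against 64 and 56 times in shNeuroD1, and without strand its reads cannot be told apart from those of BDNF. No BDNF start or end was listed in the FPKM files.

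NTF3 (ENSG00000185652, GRCh38 chr12:5432112-5521536, plus strand), encoding neurotrophin-3, the main ligand of TrkC, had 0 counts in each of the 4 libraries. This allows a level of up to 0.204 CPM in shControl 1 and 0.189 CPM in shControl 2, and of up to 0.197 CPM in each shNeuroD1 library. NTF3 had no listed start or end in the FPKM files. Of the 2 ligand genes, BDNF alone was detected above this limit.

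Among the 5 members that passed the filter, the levels of NGFR, NTRK3, SORT1 and SORCS1 did not overlap between the groups. The same was true of 76.1% of all tested genes, in either direction. The members were chosen with this comparison known, and nothing is read from their count. Leaving NGFR and NTRK3 aside, the differences of the other passing members were between -0.17 and -0.01 in log2 fold change.

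Levels of different genes were compared per length, as CPM per kilobase of merged GENCODE 29 exons. In shControl, NGFR was the highest of the members at 20.8 ± 0.0734 CPM per kb (SD, n = 2), above SORT1 at 15.2 ± 1.13 and SORCS1 at 11.0 ± 0.272 CPM per kb. BDNF followed at 2.03 ± 0.0174 and NTRK3 at 0.858 ± 0.0141 CPM per kb. In shNeuroD1 the order was SORT1 at 13.5 ± 0.0142, SORCS1 at 10.25 ± 0.147, BDNF at 2.02 ± 0.0854, NTRK3 at 1.21 ± 0.0634 and NGFR at 1.03 ± 0.0903 CPM per kb (SD, n = 2 each). Neighbours in either order did not overlap between libraries, and NGFR moved from the first place to the last of the detected members. The place of NTRK3 depends on its merged exons, which are long at 26.75 kb against 4.15 kb for NGFR.

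The ratio of NGFR to SORT1, its partner for uncut neurotrophins, was then taken per length. It was 1.45 and 1.31 in shControl against 0.0809 and 0.0716 in shNeuroD1, so that NGFR stood above SORT1 in both control libraries and far below it in both knockdown libraries.

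**Figure D3:**
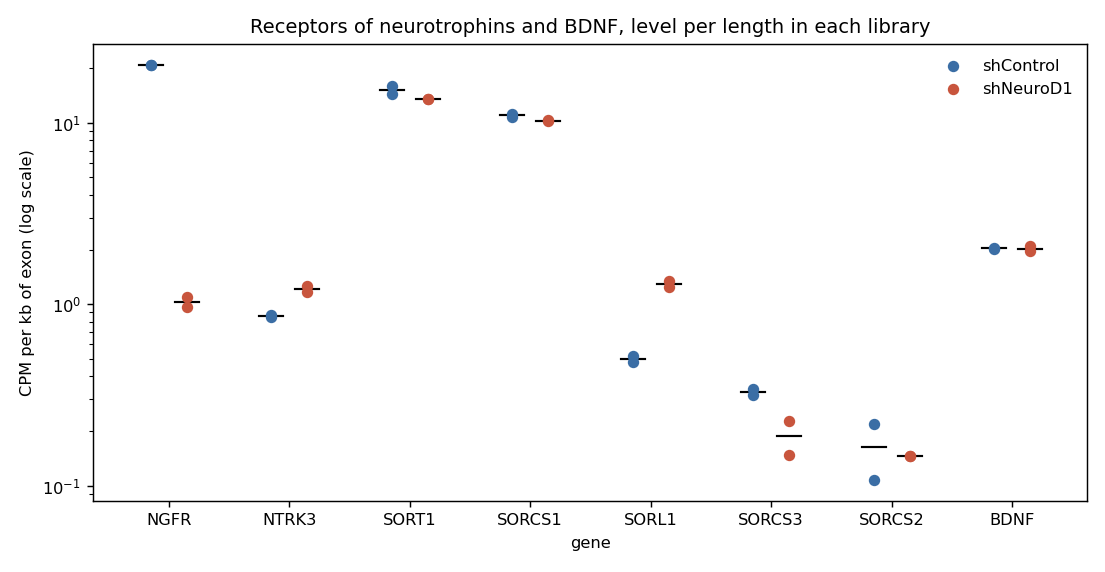
Level of the receptor genes and of BDNF as CPM per kilobase of exon (vertical axis, log scale) in the 2 shControl libraries (blue) and the 2 shNeuroD1 libraries (red), where each point is 1 library and the line is the mean of 2. NGFR goes from 20.8 to 1.03 CPM per kb, while SORT1, SORCS1 and BDNF keep their order among themselves, and NTRK2 and NTF3, at or near 0 counts, are not drawn.

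Other VPS10 receptors and the ligand NTF4 were set beside the members. Over all tested genes 28.2% were lower and 26.8% were higher at an adjusted p under 0.05 in edgeR, a split of 4939 to 4698 that became 3639 to 6114 under library size alone. SORL1, a VPS10 receptor that sorts the amyloid precursor protein and TrkB, rose from 138 and 159 counts in shControl to 396 and 369 counts in shNeuroD1, or from 9.69 ± 0.460 to 25.1 ± 1.27 CPM (SD, n = 2 each). Its log2 fold change was 1.37, with an SE of 0.112 and an adjusted p of 3.81e-12 in edgeR. SORCS3 was counted 29 and 29 times in shControl against 13 and 20 times in shNeuroD1 (log2 fold change -0.80 with an SE of 0.366 and an adjusted p of 0.064 in edgeR). SORCS2 had 10, 22, 14 and 14 counts, and its log2 fold change of -0.18 (SE 0.441, adjusted p 0.756 in edgeR) became 0.42 without shControl 2. NTF4, encoding neurotrophin-4, had 3 counts in shNeuroD1 1 and 0 in the others, which is at or under the limit that a count of 0 allows.

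Among the adaptors and effectors that carry the signal of Trk receptors, most tested genes rose in edgeR. Of 20 genes tested, 13 were higher, 5 were lower (IRS1, CRKL, GAB1, CRK and PTPN11) and 2 did not pass, with a median log2 fold change of 0.232 against 0.008 over all tested genes. Over all tested genes 26.8% were higher and 28.2% were lower. Of the higher genes, 2 lay beyond a log2 fold change of 1. SHC3, SHC4 and SHC2, adaptors of the family that docks on phosphorylated receptors, had the 3 largest rises. SHC3, the neuronal form, was counted 88 and 136 times in shControl against 782 and 749 times in shNeuroD1 (log2 fold change 2.78 with an SE of 0.109 and an adjusted p of 2.8e-20 in edgeR). SHC4 rose by 1.03 (SE 0.22, adjusted p 0.000173 in edgeR) and SHC2 by 0.91 (SE 0.0788, adjusted p 1.52e-11 in edgeR) in log2. SHC1, chosen after its values were seen, rose by 0.84 (SE 0.0514, adjusted p 2.76e-15 in edgeR), less than IRS2 and SH2B2, so that the 4 SHC genes moved the same way. The list gave 15 higher and 2 lower genes under library size alone, and 8 higher and 2 lower without shControl 2. The lower genes were 3, 2 and 3 without shControl 1, shNeuroD1 1 and shNeuroD1 2. In DESeq2 the list gave 10 higher and 2 lower genes. With limma applied to log2(FPKM + 1) or log2(FPKM + 0.1), 15 of its genes were tested, of which 1 was higher and 0 were lower. SHC2 and SHC3 were not past the threshold in these FPKM fits.

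Partners and effectors of p75NTR did not move one way. Of 15 genes listed and 14 tested, 4 were higher (TNFRSF19, LINGO1, MAGED1 and MAPK8IP3), 3 were lower (PRDM4, ZNF274 and RIPK2) and 7 did not pass, with a median log2 fold change of 0.05. These counts lie near the shares over all tested genes, 26.8% higher and 28.2% lower, and nothing is read from them. TNFRSF19, also called TROY, a relative that can stand in for p75NTR in the Nogo receptor complex, was counted 102 and 130 times in shControl against 345 and 390 times in shNeuroD1 (log2 fold change 1.67 with an SE of 0.124 and an adjusted p of 3.71e-13 in edgeR). LINGO1, another part of that complex, rose by 1.01 in log2 (SE 0.0846, adjusted p 5.85e-12 in edgeR). MAGED1, a melanoma antigen family protein that binds the inner part of p75NTR, rose by 0.91 (SE 0.0504, adjusted p 2.48e-16 in edgeR). NDN had at most 1 count in a library and was not tested. Under library size alone the list gave 8 higher and 2 lower genes, it gave 4 higher and 1 lower without shControl 2, and LINGO1 was not past the threshold in limma on the FPKM values.

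Genes that cut or sort neurotrophin precursors, or cut their receptors, moved in both directions. Of 16 genes tested, 6 were lower, 3 were higher (FURIN, PCSK7 and ADAM17) and 7 did not pass, with a median log2 fold change of -0.112. The shares over all tested genes were 28.2% lower and 26.8% higher. PCSK5, a proprotein convertase, was counted 62 and 63 times in shControl against 9 and 6 times in shNeuroD1 (log2 fold change -3.03 with an SE of 0.351 and an adjusted p of 7.79e-09 in edgeR). CPE, a carboxypeptidase that also sorts BDNF into regulated vesicles, fell by 0.65 in log2 (SE 0.0549, adjusted p 7.23e-12 in edgeR). ADAM10, a sheddase of the cell surface, fell by 0.39 (SE 0.0472, adjusted p 1.59e-08 in edgeR). In edgeR without shControl 1 the list gave 4 lower and 0 higher genes, with 2 higher at an unadjusted p under 0.05, and in DESeq2 it also gave 4 lower and 0 higher, with 1 higher at an unadjusted p under 0.05. The higher genes were 1, 2 and 1 without shControl 2, shNeuroD1 1 and shNeuroD1 2. CPE and ADAM10 were not past the threshold in limma on the FPKM values.

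In the list of early genes, not all of which are known to be induced by neurotrophins, most tested genes were lower. Of 12 genes listed and 10 tested, 8 were lower and 2 were higher (VGF and ARC), with a median log2 fold change of -0.493. Over all tested genes, 28.2% were lower and 26.8% higher. The 8 lower genes include CREB1 (log2 fold change -0.18, SE 0.0512, adjusted p 0.00341 in edgeR), which is not itself an induced early gene. They also include NPAS4 (log2 fold change -1.50, SE 0.354, adjusted p 0.000563 in edgeR), for which induction by neurotrophins is not assumed here. EGR1, an immediate early transcription factor, was counted 722 and 755 times in shControl against 142 and 138 times in shNeuroD1, or 19.1% of the control level (log2 fold change -2.39 with an SE of 0.0944 and an adjusted p of 3.76e-20 in edgeR). FOSB was counted 53 and 75 times in shControl against 10 and 5 times in shNeuroD1 (log2 fold change -3.06 with an SE of 0.361 and an adjusted p of 1.18e-08 in edgeR). VGF, a secreted neuropeptide precursor known to be induced by neurotrophins, went the other way, from 252 and 281 counts in shControl to 1470 and 1537 counts in shNeuroD1 (log2 fold change 2.50 with an SE of 0.0709 and an adjusted p of 6.11e-24 in edgeR). EGR2 and EGR3 had between 1 and 7 counts in a library and were not tested. Without shControl 1 the list gave 5 lower genes, and VGF was not past the threshold in limma on the FPKM values.

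**Figure D4:**
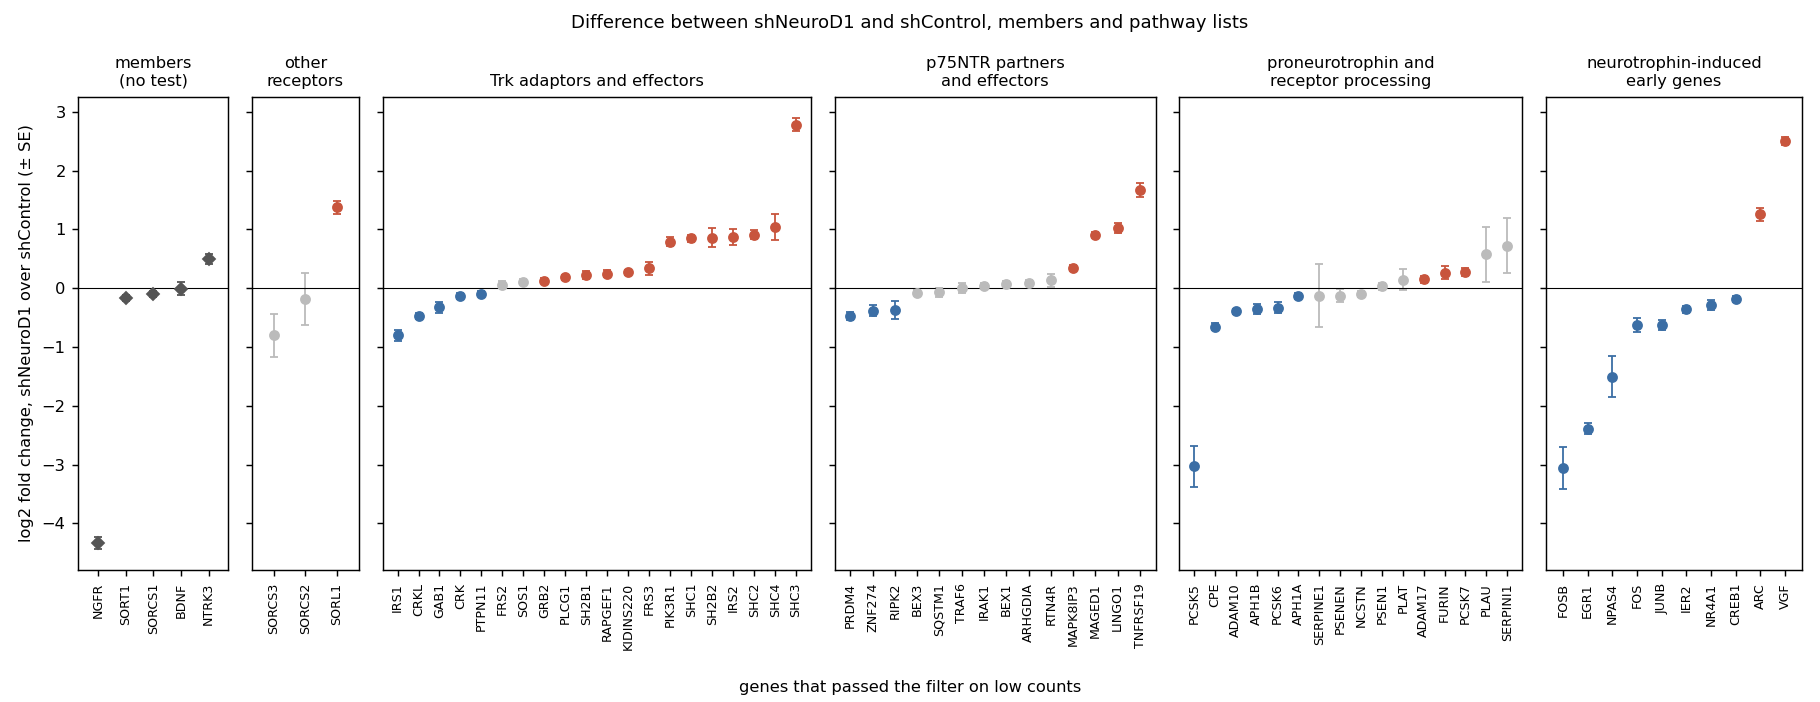
Log2 fold change of shNeuroD1 over shControl (vertical axis, with SE as whiskers) for the 5 members that passed the filter (diamonds, no test) and for the reported tested genes of the 5 pathway lists, drawn in blue where lower and red where higher at an adjusted p under 0.05 in edgeR, and in grey otherwise. NGFR lies at -4.33, below every gene of the pathway lists, and the list of Trk adaptors has 13 genes in red against 5 in blue.

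Over the 5 pathway lists, 64 of 69 genes were tested, of which 23 were lower, 23 were higher and 18 did not pass. Against this the background was 28.2% lower and 26.8% higher genes. The same lists gave 16 lower and 29 higher genes under library size alone.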

How the data were processed

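RNA-seq of 4 IMR-32 libraries was analysed, with groups and replicate numbers from the sample titles. The authors deposited raw read counts per Ensembl gene (60612 rows, 0% of counts outside genes) and, for each library, FPKM values of starts, ends and splicing events of assembled transcripts. Per the submitters' processing notes, cutadapt 1.9.1, HISAT2 2.0.1, HTSeq 0.6.1, DESeq2 and the hg38 build were used. The use of strand and the annotation were not given in the sources used here, and the authors' own fold changes and p-values were not used. Symbols were found for 60401 gene IDs.

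Counts were analysed in edgeR 4.0.16 (R 4.3.3). The filter was filterByExpr with a minimum count of 10, the scaling was TMM, and the test between groups was the two-sided quasi-likelihood test without a block, with Benjamini-Hochberg adjustment over 17537 genes and a threshold of 0.05. The SE was the size of the log2 fold change divided by the square root of F. Coordinates, exon lengths and sequences came from GENCODE 29. Counts of shNeuroD1 and shControl were simulated over 17150 genes, of which 99 changed 2-fold and 99 changed 4-fold. Of these, 78.8% of the 2-fold and 97% of the 4-fold genes were recovered, and 5.4% of all calls were false. Far more genes were called in the real libraries, so the simulation does not measure false calls or scaling there. FPKM fits used limma 3.58.1 on the sum of a gene's starts where this averaged 1 FPKM or more, without NEUROD1, whose assembled locus is merged with that of CERKL. The replicates of a group differed by more than counting noise (chi-square per gene 2.53 in shControl and 1.56 in shNeuroD1).

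The members and gene lists were chosen with earlier results of these data known. Named were the members, NEUROD1, the other neurotrophins and their receptors (2 genes of that list are not reported here), the 3 genes of each other list with the largest change at an adjusted p under 0.05 and a mean of at least 1 CPM, and the 3 genes nearest to the members with the largest fall and the largest rise. Other genes named, also to spell out small counts, and the markers named were chosen after their values were seen.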

Additional observations from a re-analysis of the deposited data

How the results depend on the processing

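NEUROD1 was lower and past the threshold in each edgeR and DESeq2 setting, at -2.84 to -2.66 in log2 fold change. Under library size alone the log2 fold change was -4.22 for NGFR, 0.61 for NTRK3, -0.06 for SORT1, 0.01 for SORCS1 and 0.11 for BDNF, while the median of all genes was 0.12. With limma applied to log2(FPKM + 1) or log2(FPKM + 0.1) it was -3.35 and -4.16 for NGFR, 0.79 and 1.26 for NTRK3, -0.46 and -0.52 for SORT1, and -1.02 and -2.34 for SORCS1, whose listed starts are near 0 in shNeuroD1 1. Leaving out each library gave -4.43 to -4.25 for NGFR, 0.44 to 0.55 for NTRK3, -0.25 to -0.10 for SORT1, -0.13 to -0.08 for SORCS1, -0.05 to 0.04 for BDNF and -2.84 to -2.71 for NEUROD1, with the lone library of a group assumed to vary like the other group. The pathway counts ranged from 15 to 20 lower and from 16 to 20 higher genes, and 15 lower were left without shControl 1. Over 46 pathway genes, the FPKM fits called 2 lower and 3 higher genes at either pseudocount, with 278 lower and 247 higher genes over all at a pseudocount of 1 and 257 and 206 at 0.1. DESeq2 1.42.0 called 3580 lower and 2757 higher genes over all. Without shControl 1, shControl 2, shNeuroD1 1 and shNeuroD1 2 the higher genes were 2855, 2828, 3834 and 3860. SORCS2 ran from -0.60 without shControl 1 to 0.42, reversed, without shControl 2. For the named pathway genes, 154 alternative values kept the direction and the call, and 12 lost the call, all in the FPKM fits (SHC2, SHC3, LINGO1, CPE, ADAM10 and VGF). For these changes the cause was not tested. With the replicate number as a block (replicate block), 23 pathway genes were lower and 25 higher, NGFR stood at -4.33, and no named gene changed its call. Libraries with the same number did not deviate together (correlation 0.0269 over 15874 genes), so the numbers were not read as pairs. The 13 listed starts and ends of the members became 10 with a minimum of 0.1 FPKM, and 10 were listed in all 4 libraries. Depth limits NTRK2, NTF3 and NTF4, which lay at or under 3 counts.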
